A study of Danio rerio with 9 samples.

Results

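The genes described here are those of the cell division cycle and of DNA replication, as far as their symbols show it. A row was taken when its symbol, in lower case, began with mcm, ccna, ccnb, ccnd, ccne, cdk, orc, e2f, bub or plk followed by a number, with cenp followed by a letter, or with aurk, and 80 of the 22337 rows of the deposited tables did so. Among the 80, 8 share a prefix only, such as activators and partners of a kinase, and 3 are further copies whose symbol ends in l. They are counted and named as such.

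The study concerned zic2, a zinc-finger transcription factor, and its part in periocular crest cells and in the choroid fissure, a transient groove of the eye. RNA was sequenced from single zebrafish embryos (Danio rerio) aged about 25 hours after fertilization that had been raised at 29 °C. The embryos were sorted by eye phenotype into 5 with coloboma (numbers 3, 4, 5, 6 and 7), in which that fissure fails to close, and 4 normal ones (numbers 3, 4, 6 and 7). Every embryo of both groups came from crosses between fish carrying zic2aGBT133/+ and zic2bUW1127/+, so that wild-type, heterozygous and homozygous genotypes can occur at either gene. The genotype of a single embryo was not stated in the sources used here. The column names carry the tags COL and WT, the meaning of which was not given. The groups are therefore groups of phenotype, and each embryo is a whole organism in one library.

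Cells pass through G1, S, G2 and M phases under the control of cyclin-dependent kinases (CDKs), which are switched on by cyclins made and destroyed at set times. E2F transcription factors, held in check by pocket proteins of the retinoblastoma family, drive the genes for DNA synthesis. The origin recognition complex (ORC) and the MCM helicase prepare origins for replication, and Aurora and Polo-like kinases, the BUB checkpoint proteins and the CENP proteins of the centromere carry chromosomes through mitosis. At this stage of zebrafish development proliferating progenitors are abundant in the brain, retina and spinal cord, while much of the skeletal muscle has left the cycle.

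Total counts per embryo ran between 20461180 (coloboma embryo 5) and 59233104 (coloboma embryo 6), and the TMM scaling factors between 0.930 and 1.074. Counts of zic2a were 46.2 to 62.6 CPM (counts divided by the TMM-scaled library size) in coloboma embryos, against 44.2 to 54.9 CPM in normal embryos, and those of zic2b were 46.3 to 49.2 CPM in coloboma and 45.3 to 54.7 CPM in normal embryos. Neither gene passed the test (edgeR adjusted p = 0.733 and 0.908), and whole-gene counts do not separate intact from disrupted transcripts. Coloboma embryo 3 stood apart: its 8 lens genes averaged -4.95 on the log2 scale relative to the normal embryos, and 8 genes of retinal progenitors averaged -1.32 in it. The median fold change of the cell cycle genes and the counts of those called are therefore also given without it. For the further lists of genes below this was not done.

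The levels of the cell cycle genes in TPM, a unit scaled by transcript length so that genes can be compared, summed to 2866, 3154, 3299, 2998 and 3030 in coloboma embryos 3 to 7, against 3603, 3266, 3929 and 3643 in normal embryos 3, 4, 6 and 7. The means were 3069 ± 164 (SD, n = 5) in coloboma and 3611 ± 272 (SD, n = 4) in normal embryos. On this scale, which carries no TMM scaling, the groups overlapped only in coloboma embryo 5 and normal embryo 4. In CPM the 78 members tested summed to 4774, 4826, 5252, 4542 and 4555 in coloboma embryos, against 5658, 4984, 5496 and 5101 in normal embryos. There coloboma embryo 5 exceeded normal embryos 4 and 7. A sum over chosen genes was given no test.

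Highest of all stood ccnb1, the cyclin that drives entry into mitosis with CDK1, at 260, 255, 270, 239 and 251 TPM in coloboma embryos, against 291, 293, 323 and 289 TPM in normal embryos. Its TPM did not overlap between the groups, although its CPM did. Next came ccnd1, a G1 cyclin that answers to growth signals, at 179 to 222 TPM in coloboma and 192 to 274 TPM in normal embryos, below ccnb1 in each of the 9 embryos. The mitotic kinase gene plk1 followed at 168 ± 14.9 TPM (SD, n = 5) in coloboma and 193 ± 35.6 TPM (SD, n = 4) in normal embryos, and its range overlapped that of ccnd1. Over all embryos mcm7 (158 TPM), mcm5 (150), cdk1 (140), mcm2 (130), ccna2 (127), mcm6 (115) and mcm4 (114) filled ranks 4 to 10. From plk1 down to mcm4, each differed from the next by less than the larger group SD of the pair. The 5 lowest were ccna1 (0.439 TPM), mcm6l (0.289), mcm3l (0.289), ccnd3 (0.201) and ccnb1l (0.174).

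**Figure D1:**
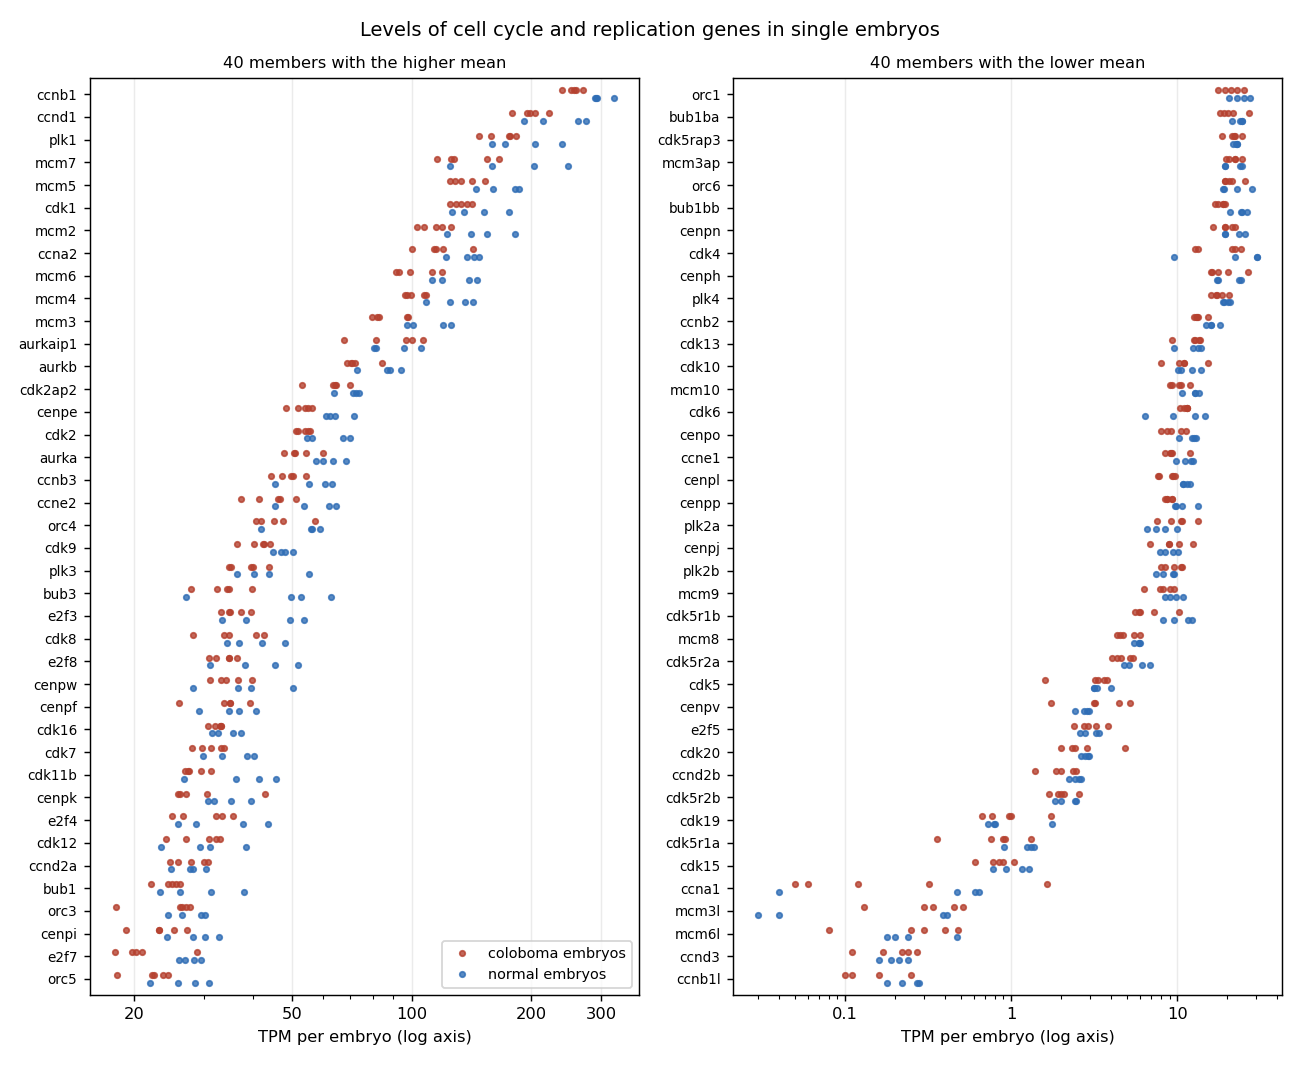
Level of each of the 80 genes in every embryo, in TPM on a log axis, ordered by the mean over 9 embryos, with 5 coloboma embryos in red and 4 normal embryos in blue. Levels ran between 275 TPM for ccnb1 and 0.174 TPM for ccnb1l on average. A single value of 0 TPM (ccnb1l, coloboma embryo 5) cannot be drawn on a log axis.

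The comparison of coloboma with normal embryos asked which of these genes differ with the eye phenotype. No member differed past the threshold: of 78 tested, 0 passed the threshold of 0.05 (adjusted p of edgeR's quasi-likelihood F test, Benjamini-Hochberg over 21293 genes), where 44 of all genes tested did (0.207%; 0.127% lower and 0.0798% higher). The smallest adjusted p among the members was 0.166 (e2f7). At an unadjusted p under 0.05 there were 10 members (12.8%), against 11.7% of all genes, a share near the background. By direction they were 9 lower (11.5%, against 4.9% of all genes) and 1 higher (against 6.78%). DESeq2 called 2 members, e2f7 and bub1bb, both lower, where it called 2.75% of all genes (1% lower).

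Small negative values were the rule among them. The median log2 fold change of the 78 was -0.12, against 0.00075 for all genes, and 59 of 78 (75.6%) were negative, against 49.9% of all genes. The members' counts come from the same 9 embryos, so these are descriptions with no test. The median was -0.11 without coloboma embryo 3 and -0.16 without coloboma embryo 5. In RNA of whole embryos, fewer cells of a dividing type and less RNA per cell cannot be told apart.

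The intervals were narrow for most members. For 63 of the 78 members the 95% interval of the fold change lay within 1.5-fold in either direction, and for 73 within 2-fold. Of all 21293 genes tested, 12917 lay within 1.5-fold and 17785 within 2-fold. For 57 members the sign was the same in all 20 alternative fits, 49 of them negative. Those fits reuse the same embryos, and the share over all genes was not counted. With library size only and on the log2 TPM scales the median of all genes was itself negative (-0.082, -0.079 and -0.061). Such a shift turns small positive values and not negative ones, so the split by sign is not even-handed. The groups' CPM did not overlap for 4 members (5.13%), e2f7, bub1bb, cenpl and cenpp, all lower in coloboma, against 2.16% of all genes. In the other direction this held for 0 members and 2.27% of all genes.

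**Figure D2:**
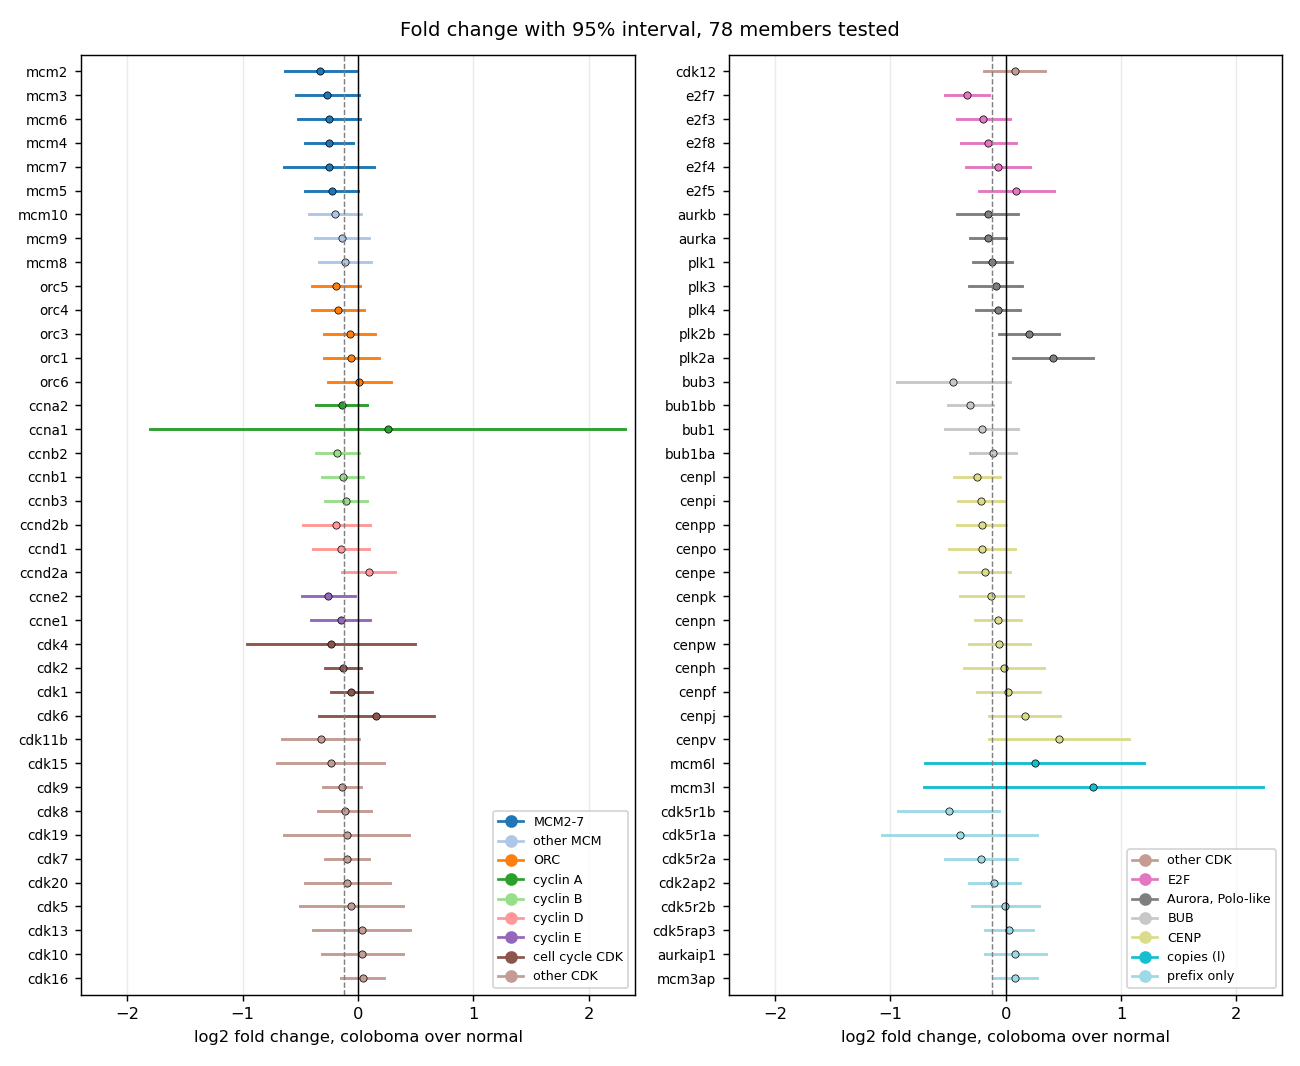
Log2 fold change of coloboma over normal embryos (horizontal axis) for the 78 genes tested, grouped by role and marked by colour. Points are edgeR estimates, bars their 95% intervals, the solid line is 0 and the dashed line the members' median of -0.12. Most points lie left of 0, most intervals include it, and those of ccna1, mcm3l and mcm6l are the widest.

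The 6 subunits of the replicative helicase, mcm2 to mcm7, were all negative, against 49.9% of all genes. Their median log2 fold change was -0.25 (range -0.33 to -0.23). A negative value with an unadjusted p under 0.05 (edgeR) was found for 3 (50%), against 4.9% of all genes. The summed level of the 6 was 1369, 1390, 1446, 1221 and 1150 CPM in coloboma embryos, against 1941, 1464, 1604 and 1303 CPM in normal embryos. Normal embryo 3 was far above the rest and normal embryo 7 lay within the coloboma range, so the groups overlapped. Single genes followed the same order: normal embryo 3 was the highest and normal embryo 7 the lowest normal embryo in 5 of 6 (all but mcm4), against 13.5% of all genes with a mean of at least 1 CPM. The 6 values are therefore not independent, which limits what the share of 50% can show. With one embryo left out, the highest log2 fold changes of mcm2 to mcm7 were -0.18, -0.16, -0.18, -0.15, -0.15 and -0.06.

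The subunit gene mcm2 measured 253, 253, 253, 216 and 205 CPM in coloboma embryos, against 383, 290, 284 and 226 CPM in normal embryos. Only normal embryo 7 lay inside the coloboma range. Its log2 fold change of -0.33 ± 0.14 (SE) did not pass the test (edgeR adjusted p = 0.399), and in 20 alternative fits it ran between -0.43 and -0.18. For mcm4 the values were 216, 222, 232, 203 and 193 CPM in coloboma embryos, against 290, 227, 266 and 233 CPM in normal embryos. Coloboma embryo 5 exceeded normal embryo 4 there, and the groups were otherwise apart. At -0.25 ± 0.10 (log2, SE) it had the smallest p of the class (edgeR adjusted p = 0.336).

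Values of mcm5 were 247, 269, 263, 234 and 216 CPM in coloboma embryos, against 335, 261, 298 and 259 CPM in normal embryos. Coloboma embryos 4 and 5 exceeded normal embryos 4 and 7. It stood at -0.23 ± 0.10 (log2, SE; edgeR adjusted p = 0.424). Of the remaining subunit genes, mcm3 averaged 183 ± 21.9 CPM (SD, n = 5) in coloboma and 220 ± 35.8 CPM (SD, n = 4) in normal embryos. In the same order mcm6 averaged 231 ± 30.1 and 275 ± 41.7 CPM, and mcm7 206 ± 29.6 and 245 ± 70.0 CPM. Log2 fold changes of mcm3, mcm6 and mcm7 were -0.27, -0.25 and -0.25, with edgeR adjusted p of 0.439, 0.459 and 0.640.

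**Figure D3:**
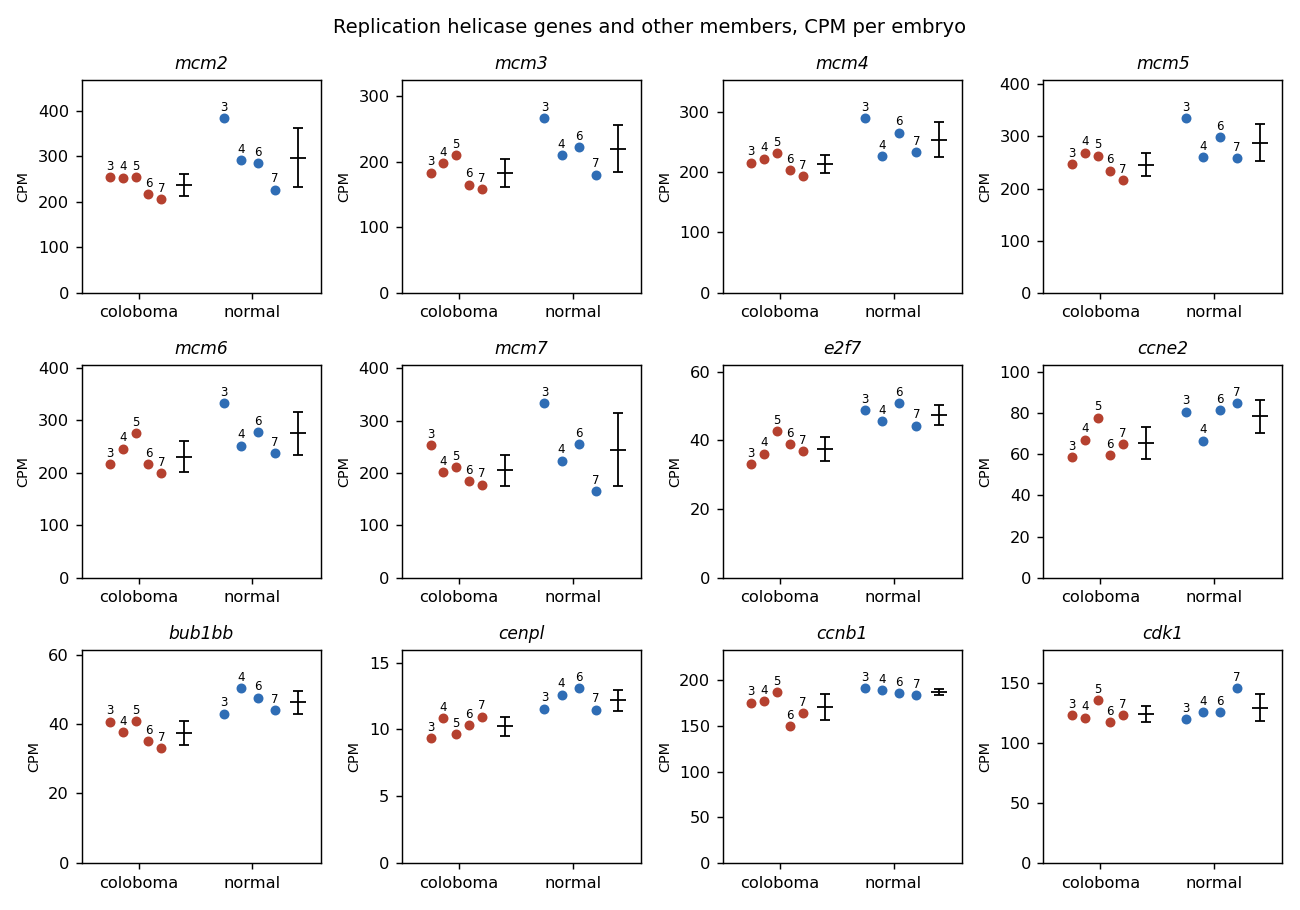
CPM of 12 members in each coloboma embryo (red, left) and normal embryo (blue, right), with the embryo number above each point and the mean ± SD beside each group. The vertical axes start at 0. In mcm2, mcm3, mcm5, mcm6 and mcm7 normal embryo 3 is the highest and normal embryo 7 the lowest of the normal embryos. In e2f7, bub1bb and cenpl every coloboma embryo lies below every normal embryo.

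The genes mcm8, mcm9 and mcm10 and the ORC genes lay nearer to 0. The licensing factor gene cdc6, which is outside the symbol rule and is given below, did not (log2 -0.34). Mcm10, needed to turn the loaded helicase into an active one, averaged 20.2 ± 2.48 CPM (SD, n = 5) in coloboma and 23.1 ± 1.91 CPM (SD, n = 4) in normal embryos (log2 -0.20 ± 0.10, SE; edgeR adjusted p = 0.483). The recombination helicase genes mcm9 (-0.14) and mcm8 (-0.12) were negative too. Of the 5 ORC genes, whose products mark origins, 4 were negative and the median was -0.07. For orc5 the means were 25.4 ± 2.21 CPM in coloboma and 28.9 ± 2.76 CPM in normal embryos (log2 -0.19 ± 0.09, SE; edgeR adjusted p = 0.463). For orc4 they were 42.4 ± 4.05 and 47.8 ± 6.11 CPM (-0.17 ± 0.10), and for orc1 40.9 ± 5.55 and 42.5 ± 3.89 CPM (-0.06 ± 0.11). All 5 ORC genes were highest, among coloboma embryos, in embryo 5, the library with the fewest counts.

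No tested cyclin gene of the G1 to S transition passed the threshold. The E-type cyclin gene ccne2, whose product activates CDK2 at the start of S phase, measured 58.4, 67.1, 77.7, 59.5 and 64.9 CPM in coloboma embryos, against 80.6, 66.6, 81.3 and 84.7 CPM in normal embryos. Normal embryo 4 lay among the coloboma embryos, and the other normal embryos lay above all of them. Its log2 fold change of -0.26 ± 0.10 (SE) did not pass (edgeR adjusted p = 0.363). The second E-type gene, ccne1, averaged 12.8 ± 1.97 CPM in coloboma and 14.1 ± 1.16 CPM in normal embryos (-0.15 ± 0.12).

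Cyclin D1 was measured with a wide normal group: ccnd1 had 381, 399, 440, 396 and 383 CPM in coloboma embryos, against 396, 366, 503 and 507 CPM in normal embryos. Normal embryos 6 and 7 stood above all others, and normal embryos 3 and 4 lay within or below the coloboma range. The difference of -0.15 ± 0.11 was small beside this spread (log2, SE; edgeR adjusted p = 0.662). The D2 copies ccnd2a (24.2 ± 3.29 CPM in coloboma, 22.7 ± 1.1 CPM in normal embryos; log2 0.09 ± 0.10) and ccnd2b (5.18 ± 0.766 and 5.91 ± 0.458 CPM; -0.19 ± 0.13) had opposite signs. Cyclin D3 was barely detected: ccnd3 had 4, 5, 3, 12 and 5 counts in coloboma embryos, against 9, 7, 8 and 6 counts in normal embryos, and was too low to be tested.

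Of the later cyclins, ccna2, which acts in S phase and G2, had 55.2, 58.3, 76.2, 57.8 and 59.6 CPM in coloboma embryos, against 72.8, 63.4, 68.2 and 66.5 CPM in normal embryos. Coloboma embryo 5 was the highest of all 9, and the other 4 coloboma embryos were below every normal one. The log2 value was -0.14 ± 0.10 (SE; edgeR adjusted p = 0.635). Mitotic ccnb1 measured 176, 177, 187, 150 and 164 CPM in coloboma embryos, against 191, 189, 186 and 184 CPM in normal embryos. Again coloboma embryo 5 lay within the normal range and the rest below it, at -0.13 ± 0.08 (log2, SE; edgeR adjusted p = 0.567). The B-type genes ccnb2 (14.5 ± 1.05 CPM in coloboma, 16.4 ± 0.873 CPM in normal embryos) and ccnb3 (44.6 ± 3.20 and 47.9 ± 3.41 CPM) were at -0.18 and -0.10.

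Cyclin A1, which in mice serves the male germ line, was scarce and uneven between embryos. Its gene ccna1 had 12, 3, 3, 4 and 104 counts in coloboma embryos, against 2, 16, 37 and 33 counts in normal embryos. Coloboma embryo 7 held most of the coloboma counts. The fold change of 0.26 ± 0.94 (log2, SE; edgeR adjusted p = 0.939) became -1.51 without that embryo, so that no direction can be given. The 5 germ cell markers tested, positive in 5 of 5, summed to 6.52 to 12.0 CPM in coloboma and to 2.86 to 10.02 CPM in normal embryos. Their mean log2 level relative to the normal embryos was 0.86 in coloboma embryo 7. It was also high in coloboma embryo 4 (0.73) and normal embryo 3 (0.69), which had 0.0582 and 0.0460 CPM of ccna1, and low in normal embryo 6 (-1.06), which had 0.641 CPM. The part of germ cell RNA in ccna1 was not tested.

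Among the cell cycle kinases, cdk1, the mitotic CDK, had 123, 121, 136, 118 and 123 CPM in coloboma embryos, against 119, 126, 126 and 145 CPM in normal embryos. The groups overlapped almost fully, with a fold change of -0.057 ± 0.08 (log2, SE; edgeR adjusted p = 0.823) and a 95% interval of -0.24 to 0.12. The S phase kinase gene cdk2 averaged 58.6 ± 2.44 CPM (SD, n = 5) in coloboma and 64.0 ± 3.72 CPM (SD, n = 4) in normal embryos (log2 -0.13 ± 0.07, SE; edgeR adjusted p = 0.528). The cyclin D partners cdk4 and cdk6 were too variable to compare closely, with 95% intervals of -0.97 to 0.50 and of -0.34 to 0.66, and are taken up below with the spread.

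The 12 further CDKs, several of which act in transcription, had a median of -0.09, with 8 negative. The elongation kinase gene cdk9 averaged 50.2 ± 2.73 CPM in coloboma and 55.1 ± 3.55 CPM in normal embryos (-0.14 ± 0.08). The CDK11 gene cdk11b had 25.9, 27.2, 24.7, 25.7 and 23.5 CPM in coloboma embryos, against 41.4, 32.2, 32.6 and 21.2 CPM in normal embryos. Normal embryo 7 was the lowest of all 9 and the other normal embryos were above every coloboma embryo, at -0.33 ± 0.15 (log2, SE; edgeR adjusted p = 0.441). The other 10 ran between -0.24 (cdk15) and 0.08 (cdk12).

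The E2F genes included the member with the smallest p. The product of e2f7 is an atypical E2F that represses E2F targets late in S phase. It measured 33.0, 36.1, 42.6, 38.9 and 36.9 CPM in coloboma embryos, against 48.7, 45.5, 50.8 and 44.2 CPM in normal embryos. Every coloboma embryo was below every normal one. The log2 fold change of -0.34 ± 0.09 (SE) did not pass in the main test (edgeR adjusted p = 0.166), passed with DESeq2 (adjusted p = 0.0197), and ran between -0.42 and -0.29 over 20 alternative fits. Its relative e2f8 averaged 63.7 ± 6.88 CPM in coloboma and 70.6 ± 9.47 CPM in normal embryos (-0.15 ± 0.11), and the activator e2f3 74.0 ± 3.95 and 84.6 ± 13.1 CPM (-0.19 ± 0.10). The pocket protein partners e2f4 (67.9 ± 7.21 CPM in coloboma, 71.1 ± 13.0 CPM in normal embryos) and e2f5 were at -0.07 and 0.09.

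The Aurora and Polo-like kinases held the one member with a positive value and an unadjusted p under 0.05. Polo-like kinase 2, linked in mammals to stress responses and centrosome duplication, is encoded here by plk2a and plk2b. For plk2a the values were 14.9, 16.5, 25.5, 19.0 and 19.0 CPM in coloboma embryos, against 12.5, 15.6, 12.3 and 16.6 CPM in normal embryos. Coloboma embryos 5, 6 and 7 lay above all normal embryos and the other two among them. It stood at 0.41 ± 0.16 (log2, SE; edgeR adjusted p = 0.335). Its copy plk2b was at 0.21 ± 0.12, with 15.8 ± 2.06 CPM in coloboma and 13.7 ± 1.61 CPM in normal embryos.

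The mitotic kinases of this class had small negative values. The spindle pole kinase gene aurka had 55.0, 51.7, 58.3, 50.4 and 51.0 CPM in coloboma embryos, against 60.2, 56.9, 61.0 and 58.5 CPM in normal embryos. Only coloboma embryo 5 reached the normal range, and the log2 fold change was -0.15 ± 0.07 (SE; edgeR adjusted p = 0.445). The chromosomal passenger kinase gene aurkb averaged 58.5 ± 6.66 CPM in coloboma and 65.0 ± 10.5 CPM in normal embryos (-0.15 ± 0.12), and plk1 234 ± 11.8 and 254 ± 15.0 CPM (-0.12 ± 0.08). The centriole duplication kinase gene plk4 was at -0.07 and plk3 at -0.09.

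All 4 genes of the BUB class were negative, against 49.9% of all genes, with a median of -0.26. The class stands for the spindle checkpoint, which holds anaphase until every chromosome is attached. The copy bub1bb of the gene for the checkpoint kinase BubR1 had 40.7, 37.6, 40.8, 35.0 and 33.0 CPM in coloboma embryos, against 43.0, 50.3, 47.6 and 43.9 CPM in normal embryos. The groups did not overlap. Its log2 fold change of -0.31 ± 0.09 (SE) did not pass in the main test (edgeR adjusted p = 0.199) and passed with DESeq2 (adjusted p = 0.0444). The other copy, bub1ba, was at -0.11 ± 0.09, with 31.1 ± 3.24 CPM in coloboma and 33.5 ± 1.97 CPM in normal embryos. The kinase gene bub1 averaged 60.8 ± 5.60 CPM in coloboma and 70.2 ± 16.4 CPM in normal embryos (-0.21 ± 0.14). Normal embryo 7 had 52.2 CPM of bub1, level with the lowest coloboma embryo. The lowest value of the class was that of bub3 (-0.45), where normal embryo 7 was below every coloboma embryo. It is taken up below with the spread.

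Genes of the CENP class, set by symbol, had a median of -0.10 over 12, near the -0.12 of all members, and 9 were negative. A negative value with an unadjusted p under 0.05 (edgeR) was found for 2 (16.7%), against 4.9% of all genes. The groups' CPM did not overlap for 2 (16.7%), cenpl and cenpp, against 2.16% of all genes. For cenpp the means were 9.10 ± 0.368 CPM in coloboma and 10.5 ± 1.16 CPM in normal embryos (-0.21 ± 0.10). The motor protein gene cenpe, whose product links chromosomes to microtubules, had 283, 269, 325, 243 and 259 CPM in coloboma embryos, against 352, 310, 302 and 286 CPM in normal embryos. Coloboma embryo 5 lay among the normal embryos and the rest below them, at -0.18 ± 0.10 (log2, SE; edgeR adjusted p = 0.532). For cenpf, another kinetochore protein of mitosis, the means were 217 ± 35.4 CPM in coloboma and 214 ± 17.7 CPM in normal embryos, and the fold change was 0.02 ± 0.12 (log2, SE), with -0.05 without coloboma embryo 5 and -0.03 without normal embryo 3.

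The smallest p values of that class belonged to cenpl and cenpi. The gene cenpl had 9.36, 10.9, 9.66, 10.3 and 11.0 CPM in coloboma embryos, against 11.6, 12.6, 13.1 and 11.5 CPM in normal embryos. The groups did not overlap, and the log2 fold change was -0.25 ± 0.09 (SE; edgeR adjusted p = 0.315). For cenpi the values were 34.9, 38.7, 41.0, 42.3 and 44.8 CPM in coloboma embryos, against 49.5, 41.6, 46.1 and 50.1 CPM in normal embryos, at -0.21 ± 0.09 (log2, SE; edgeR adjusted p = 0.402). Here normal embryo 4 lay among the coloboma embryos. The low gene cenpv was the highest of the class at 0.46 ± 0.28, with 1.25 ± 0.443 CPM in coloboma and 0.929 ± 0.135 CPM in normal embryos.

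The further copies were near the limit of detection. The copy mcm3l had 20, 42, 5, 31 and 51 counts in coloboma embryos, against 32, 2, 39 and 3 counts in normal embryos. Normal embryos 4 and 7 were almost without it and normal embryos 3 and 6 were not, and the fold change of 0.76 ± 0.67 (log2, SE; edgeR adjusted p = 0.709) has a 95% interval of -0.71 to 2.23. The copy mcm6l averaged 0.514 ± 0.247 CPM in coloboma and 0.447 ± 0.214 CPM in normal embryos (0.25 ± 0.43). The untested ccnb1l had 7, 5, 0, 6 and 8 counts in coloboma embryos, against 12, 7, 13 and 9 counts in normal embryos. Reads shared with mcm3, mcm6 or ccnb1 would be divided by the counting model, so these values are uncertain.

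Of the 8 rows that share a prefix only, cdk5r1b had the lowest log2 fold change of all members, -0.49 ± 0.20 (SE; edgeR adjusted p = 0.365). Its product activates CDK5, a kinase of neurons rather than of the cycle. It measured 5.71, 6.27, 9.56, 4.80 and 5.38 CPM in coloboma embryos, against 10.5, 8.27, 9.70 and 6.89 CPM in normal embryos, and coloboma embryo 5 lay within the normal range. The second activator gene cdk5r2a was at -0.21 ± 0.14, with 5.77 ± 0.702 CPM in coloboma and 6.66 ± 1.14 CPM in normal embryos. Neuron markers were negative in 7 of 7, with a median of -0.20. They summed to 500.3 to 593 CPM in coloboma and to 567 to 765 CPM in normal embryos, and their part in these values was not tested. Without the 8 rows the members' median was -0.13.

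Cell cycle genes outside the symbol rule were counted in 3 lists, beside all genes tested, of which 49.9% were negative and 4.9% had a negative value with an unadjusted p under 0.05. Of 50 genes of DNA synthesis, nucleotide supply and origin licensing, 0 passed (edgeR adjusted p), 48 (96.0%) were negative, 14 (28.0%) had a negative value and an unadjusted p under 0.05, and the median was -0.17. They summed to 4901, 5506, 6509, 5248 and 5294 CPM in coloboma embryos, against 6556, 5676, 6419 and 6333 CPM in normal embryos. Coloboma embryo 5 thus lay within the normal range, and coloboma embryo 3 was the lowest. Thymidine kinase gene tk1 had 27.3, 29.9, 33.9, 29.7 and 32.1 CPM in coloboma embryos, against 50.7, 37.5, 41.2 and 41.2 CPM in normal embryos. The groups were apart, at -0.48 ± 0.10 (log2, SE; edgeR adjusted p = 0.108), and it passed with DESeq2 (adjusted p = 0.00316). The DNA primase gene prim1 averaged 55.2 ± 5.41 CPM in coloboma and 68.7 ± 4.72 CPM in normal embryos (-0.31 ± 0.09), the licensing factor gene cdc6 50.4 ± 6.51 and 63.5 ± 4.38 CPM (-0.34 ± 0.10), and the ribonucleotide reductase gene rrm1 450 ± 63.6 and 570 ± 46.9 CPM (-0.34 ± 0.11).

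Of 60 further genes of mitosis, 0 passed (edgeR adjusted p), 53 (88.3%) were negative and the median was -0.10. A negative value with an unadjusted p under 0.05 was found for 4 (6.67%), a share near that of all genes. The 60 summed to 5368, 5449, 6655, 5167 and 5509 CPM in coloboma embryos, against 6079, 5848, 6121 and 6343 CPM in normal embryos. Coloboma embryo 5 exceeded every normal embryo, and the other coloboma embryos were below them all. The smallest p belonged to fzr1, an activator of the anaphase-promoting complex, at 56.8 ± 1.61 CPM in coloboma and 65.2 ± 3.37 CPM in normal embryos (-0.20 ± 0.07). The kinesin genes kif18a (-0.19 ± 0.08) and kif15 (-0.23 ± 0.10) and the phosphatase gene cdc25 (-0.23 ± 0.10) came next.

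Of 24 inhibitors of the cycle and pocket proteins, 0 passed (edgeR adjusted p), 14 (58.3%) were negative and the median was -0.04. With an unadjusted p under 0.05 (edgeR) there were 3 positive values, against 6.78% of all genes, and 2 negative ones (8.33%, against 4.9%). Both directions together made 20.8%, against 11.7% of all genes. The antiproliferative gene btg2 had 82.1, 81.9, 75.5, 88.0 and 87.2 CPM in coloboma embryos, against 113, 99.9, 142 and 111 CPM in normal embryos. The groups did not overlap, at -0.49 ± 0.10 (log2, SE; edgeR adjusted p = 0.108; DESeq2 adjusted p = 0.00171). The pocket protein gene rbl1, encoding p107, averaged 36.4 ± 1.56 CPM in coloboma and 46.2 ± 5.92 CPM in normal embryos (-0.35 ± 0.09; edgeR adjusted p = 0.179; DESeq2 adjusted p = 0.0367). The growth arrest gene gadd45aa (0.44 ± 0.15) and the CDK phosphatase gene cdkn3 (0.30 ± 0.11) were positive.

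By share of all counts, the members made up 0.444, 0.477, 0.521, 0.441 and 0.455% in coloboma embryos 3 to 7, against 0.561, 0.502, 0.580 and 0.548% in normal embryos 3, 4, 6 and 7. Coloboma embryo 5 and normal embryo 4 overlapped, and the means were 0.467 ± 0.0330% (SD, n = 5) in coloboma and 0.548 ± 0.0334% (SD, n = 4) in normal embryos. Like TPM, these shares carry no TMM scaling. The share of 16 skeletal muscle markers ran the other way, at 5.39, 4.13, 3.63, 4.90 and 5.21% in coloboma embryos, against 3.07, 3.92, 2.95 and 2.44% in normal embryos. Coloboma embryo 5 and normal embryo 4 were again the pair that overlapped. Among normal embryos the order was not mirrored throughout: number 7 had the lowest muscle share, but numbers 3 and 6 had higher member shares.

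Those 16 muscle markers were positive in 16 of 16, with a median log2 fold change of 0.61 and 1 past the threshold. They summed to 36580 to 58018 CPM in coloboma embryos and to 22756 to 38985 CPM in normal embryos, with none at 0 counts. With the counts of these muscle genes left out of the total, the members' share was 0.490 ± 0.0310% (SD, n = 5) in coloboma and 0.565 ± 0.0322% (SD, n = 4) in normal embryos. Neural progenitor markers were negative in 6 of 8 (median -0.11) and summed to 783 to 1061 CPM in coloboma and to 918 to 1175 CPM in normal embryos. Retinal progenitor markers were negative in 7 of 8 (median -0.29), at 112 to 259 CPM in coloboma and 198 to 274 CPM in normal embryos. Red cell markers were negative in 8 of 8 (median -0.55), at 1531 to 3160 CPM in coloboma and 1616 to 4262 CPM in normal embryos. The part of tissue makeup in the members' values was not tested.

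The level of a class also varied between embryos of one group. Relative to the normal mean, the MCM2-7 class had a mean log2 level of -0.44 in coloboma embryo 7 and -0.35 in embryo 6, against 0.32 in normal embryo 3 and -0.27 in normal embryo 7. The BUB class had -0.34 to -0.07 in coloboma embryos, against 0.18 in normal embryo 3 and -0.33 in normal embryo 7. Coloboma embryo 5 was the highest of its group in classes of replication as well as of mitosis. Examples are ORC at 0.13, cyclin E at 0.10 and Aurora and Polo-like kinases at 0.22. This did not hold in the BUB class at -0.30 or in the other CDKs at -0.14. By single genes, coloboma embryo 5 was the highest coloboma embryo in 48 of 73 members with a mean of at least 1 CPM (65.8%), against 32.0% of all such genes. That embryo had the lowest total count, and the part of depth in this was not tested. Without it 21 members (26.9%, against 15.4% of all genes) had an unadjusted p under 0.05, and 0 members passed, against 235 of all genes.

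**Figure D4:**
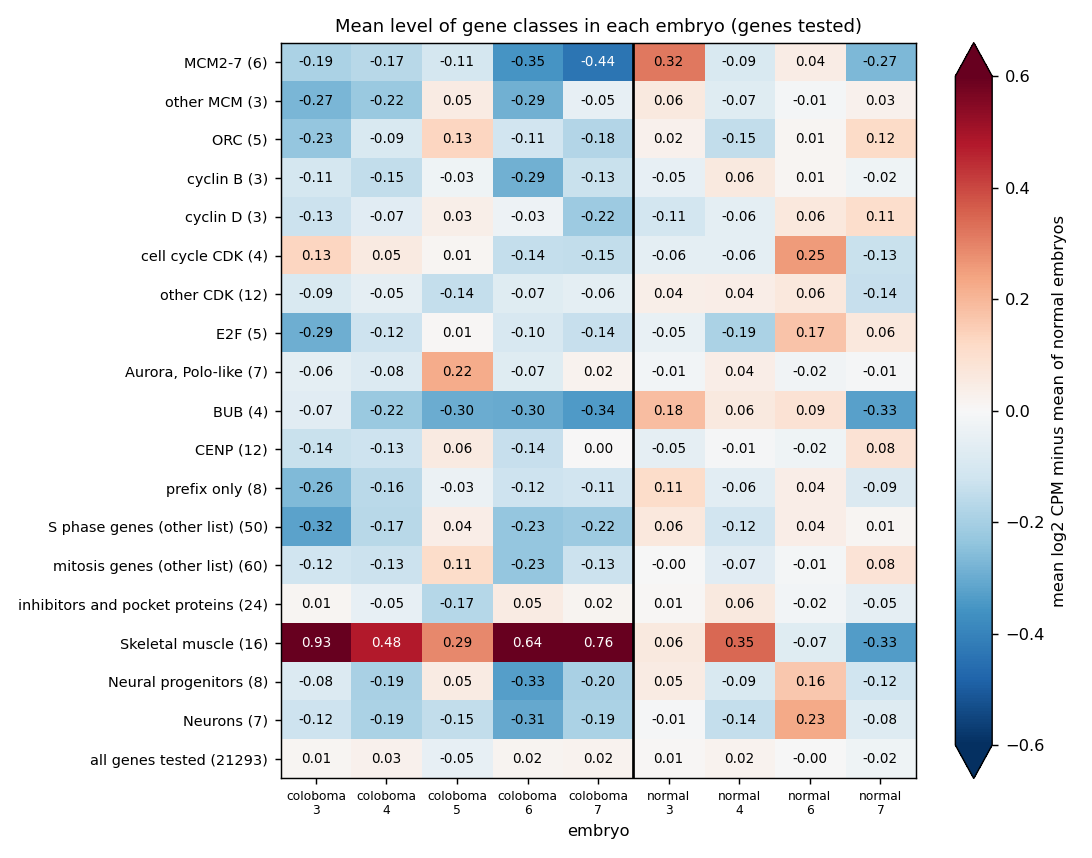
Mean log2 CPM of each class (rows, number of tested genes in brackets) in each embryo (columns, coloboma left of the line, normal right) minus the mean of the normal embryos, in blue below 0 and red above it. Most cell cycle classes are below 0 in coloboma embryos 3, 4, 6 and 7, skeletal muscle is between 0.29 and 0.93 in coloboma embryos, and MCM2-7 spans -0.27 to 0.32 among normal embryos.

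The members' spread between embryos of one group was below that of genes in general, in a comparison not matched for level. The median SD of log2 CPM was 0.164 among coloboma embryos and 0.133 among normal embryos, against 0.192 and 0.180 for all genes with a mean of at least 1 CPM. Among members with a mean of at least 1 CPM, the normal spread was widest for cdk4, cdk6, bub3, mcm7 and cdk11b. The scarce mcm3l, ccna1 and mcm6l, with SDs of 1.69, 1.40 and 0.576, fall below that mean. The cyclin D kinase gene cdk4 had 15.3, 12.9, 13.2, 7.45 and 7.61 CPM in coloboma embryos, against 13.5, 18.1, 16.1 and 5.09 CPM in normal embryos. Both groups held embryos at high and at low levels, with coloboma embryos 6 and 7 and normal embryo 7 low.

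The other cyclin D kinase gene, cdk6, had 67.6, 65.7, 49.8, 68.5 and 68.1 CPM in coloboma embryos, against 44.2, 32.8, 80.4 and 71.3 CPM in normal embryos. Normal embryos 3 and 4 were low and normal embryos 6 and 7 high, so that the fold change of 0.16 ± 0.23 (log2, SE; edgeR adjusted p = 0.823) became -0.03 without normal embryo 4. The checkpoint gene bub3 had 40.4, 32.9, 26.8, 32.9 and 29.4 CPM in coloboma embryos, against 62.1, 47.5, 44.8 and 23.5 CPM in normal embryos. Normal embryo 7 was below every coloboma embryo and the other normal embryos above them all, at -0.45 ± 0.22 (log2, SE; edgeR adjusted p = 0.470).

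**Figure D5:**
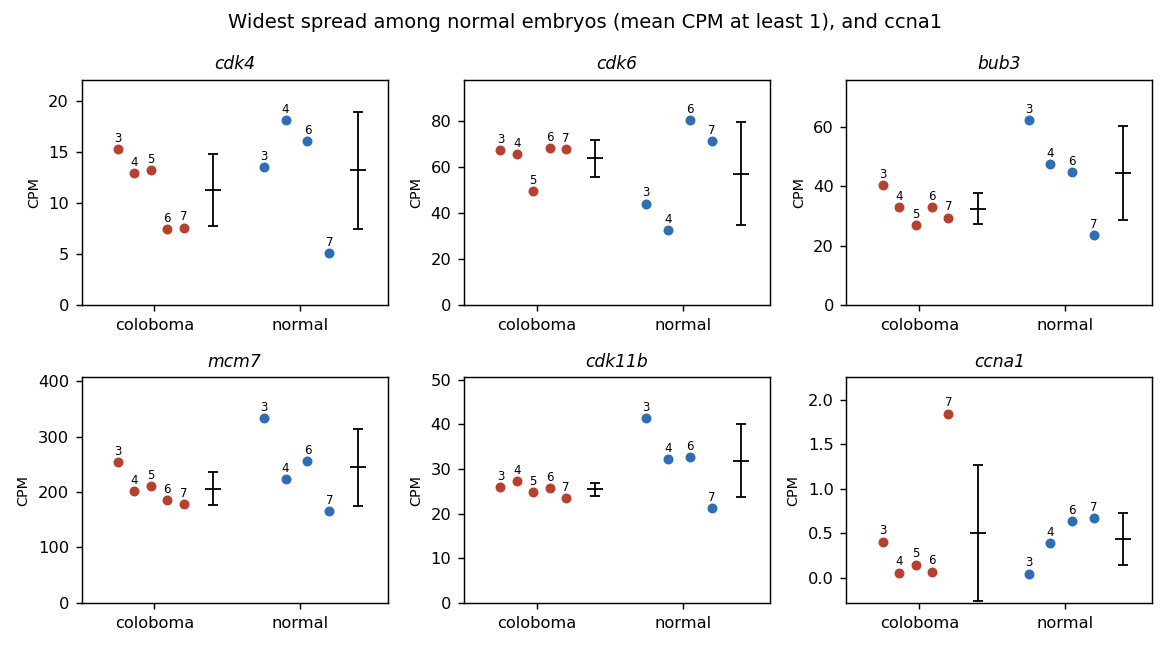
CPM of the 5 members with the widest log2 spread among normal embryos, of those with a mean of at least 1 CPM, and of ccna1, in each coloboma embryo (red, left) and normal embryo (blue, right), with the embryo number above each point and the mean ± SD beside each group. Normal embryo 7 is the lowest normal embryo in cdk4, bub3, mcm7 and cdk11b, and coloboma embryo 7 alone reaches 1.85 CPM in ccna1.

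By symbol, 79 of the 80 members were found in a RefSeq gene table of assembly GRCz12tu, from which no coordinates were taken. On the chromosome of zic2a lay cdk5r2b (log2 fold change -0.0039) and mcm3ap (0.08), and on that of zic2b cenpe (-0.18), plk1 (-0.12), cenpk (-0.12) and cdk2ap2 (-0.10), and none of them passed (edgeR adjusted p of 0.532 or more). A further 12 rows match the symbol rule only when letter case is ignored, among them E2F1, ORC2 and a row for CCNA2. They were left out of the classes above, such as ORC and E2F, and their single values are not given. By edgeR's adjusted p 0 of the 12 passed, 0 had an unadjusted p under 0.05, 9 were negative and the median was -0.10.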

How the data were processed

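RNA of 9 single embryos, 5 with coloboma and 4 normal, had been made into libraries with a TruSeq kit, per the labels' protocols. Build Zv9 and the tools Bowtie 1.1.1, RSEM 1.2.18 and CASAVA 1.8.2 are named in the submitters' processing notes. Its annotation was not given in the sources used here. Deposited estimated counts are whole numbers, taken to be RSEM expected counts that the authors had rounded. The deposited TPM values by the authors are scaled by length and keep no depth.

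Counts were tested with edgeR 4.0.16 (R 4.3.3; filterByExpr with a minimum count of 10, TMM, quasi-likelihood F test, no covariate) on all 22337 genes, of which 21293 were tested, with Benjamini-Hochberg adjustment and a threshold of 0.05. The common biological coefficient of variation was 0.199. A positive log2 fold change means a higher level in coloboma embryos, and its SE is its size divided by the square root of F. Each embryo is one replicate, and the labels name no batch. No pair of embryos within a group agreed within sampling noise (chi-square per degree of freedom 26.8 to 78.5). The steps were tested on simulated counts with known changes, where few of the smaller and most of the larger changes were called.

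Members and lists were chosen with earlier results of these data known. Of 210 list entries, 183 matched by symbol, 10 by synonym, 7 by letter case and 10 not at all. Genes named were core genes of each class whatever their values, where they are members under the lower-case rule. Others had the smallest p overall or per class, the highest or lowest TPM, or the widest spread. Of each further list, the 4 with the smallest p were named. Alternatives covered scalings, filters, DESeq2 1.42.0, limma 3.58.1 (voom, and log2 TPM with a pseudocount of 1 or 0.1), a replicate block and leaving out each embryo. The replicate block used only embryo numbers present in both groups, so coloboma embryo 5 was left out of it. Letter case was ignored in one alternative added after seeing the data. The kit does not mark strand, so reads of overlapping antisense genes cannot be assigned to one of them.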

Additional observations from a re-analysis of the deposited data

Results flagged for a closer look

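Single embryos stood far from the rest of their group in 8 of 150 groups of values examined (5.33%), where chance gives about 1 in 20. Coloboma embryo 5 accounted for 5 of them. It was far above the other coloboma embryos in ccna2 (76.2 CPM), ccne1 (16.3 CPM), cdc6 (61.7 CPM) and kif15 (128 CPM), and far below them in cdk6 (49.8 CPM). Coloboma embryo 7 was far above the others in ccna1 (1.85 CPM). Normal embryo 7 was far below the other normal embryos in kif15 (109 CPM) and in the mean log2 level of the 12 other CDKs (-0.138 relative to the normal mean).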

How the results depend on the processing

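The count of members past the threshold was 0 in every alternative but DESeq2, which gave 2 (e2f7 and bub1bb). For all genes the count was 44, against 578 with DESeq2 (367 higher, 211 lower), 18 with the replicate block, 86 at an adjusted p of 0.1, and 21 to 235 with one embryo left out (235 without coloboma embryo 5, 21 without coloboma embryo 4 or normal embryo 3, 25 without normal embryo 6, 27 without normal embryo 7). The members' median of -0.12 became -0.20 with library size only (all genes -0.08), -0.20 on log2(TPM + 0.1), -0.19 on log2(TPM + 1), -0.17 with the replicate block, and -0.159 to -0.105 with one embryo left out. Members with an unadjusted p under 0.05 numbered 10 (12.8%, all genes 11.7%). They numbered 25 with library size only (32.1%, all genes 14.1%) and 21 on either TPM scale (26.9%, all genes 12.3% and 12.4%). DESeq2 gave 14 (17.9%, all genes 12.5%), and the other fits of all 9 embryos gave 9 to 12 (11.5% to 15.4%, all genes 11.4% to 12.5%). The replicate block, which lacks coloboma embryo 5, gave 18 (23.1%, all genes 13.8%). With one embryo left out they ran between 3 without normal embryo 3 (3.85%, all genes 8.44%) and 21 without coloboma embryo 5 (26.9%, all genes 15.4%). There were 14 without normal embryo 4 (17.9%, all genes 12.3%), 4 without normal embryo 6 (5.13%, all genes 8.27%) and 16 without normal embryo 7 (20.5%, all genes 12.8%). Without coloboma embryo 3 there were 7 (8.97%, all genes 11.2%), and without coloboma embryo 4 there were 8 (10.3%, all genes 9.82%). Without coloboma embryo 6 or 7 there were 6 (7.69%, all genes 9.91% and 9.40%). These shares join both directions. For negative values alone the share was 11.5% in the main fit (all genes 4.9%). With one embryo left out it ran between 3.85% without normal embryo 3 (all genes 3.43%) and 24.4% without coloboma embryo 5 (all genes 6.91%). It was above that of all genes in each fit, and the fits reuse the same embryos. Deviations of embryos of the same number correlated at -0.0743, 0.0715, 0.0325 and -0.00269, against -0.164 to 0.125 between embryos of different numbers. No pairing by number was visible, but so few pairs cannot exclude one.

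With library size only and on the TPM scales the median of all genes itself moved, to -0.082, -0.079 and -0.061, and cenpf moved with it, to -0.060, -0.067 and -0.065 (0.022, 0.012 and -0.0042 relative to that median). Signs turned otherwise for cenpf (-0.058 with the replicate block, -0.049 to 0.11 with one embryo left out, negative without coloboma embryo 5 or normal embryo 3) and ccna1 (-0.51 with voom, -0.46 on log2(TPM + 0.1), -0.079 on log2(TPM + 1), -0.22 with the replicate block, -1.51 to 0.56 with one embryo left out, negative without coloboma embryo 7 or normal embryo 3). With one embryo left out, cdk6 ran between -0.032 and 0.36 (negative without normal embryo 4) and e2f4 between -0.15 and 0.038 (positive without normal embryo 6). In the same way cdk1 ran between -0.093 and 0.0082 and orc1 between -0.14 and 0.0021, both positive without normal embryo 7 only. The cause was not tested. The other 958 values of named members kept their sign and their side of the threshold, and e2f7 and bub1bb crossed it with DESeq2. Among the 12 named list genes tk1, btg2 and rbl1 passed with DESeq2, and tk1 and cdc6 without coloboma embryo 5. Intervals on fold changes reach past 2-fold for 5 low or variable members, which limits what 9 embryos can show there.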
